A study of Pyrus betulifolia with 6 samples.

Results

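The calcium genes described here were the 306 of 37815 genes in the deposited table whose database descriptions name a calcium sensor, a calcium channel or pump, or a protein that is defined by its link to one of these. They were found by 9 search phrases, and each was placed in 1 of 10 families by its description. In 2 of them, a CBL gene (LOC103957164) and a GLR gene (LOC103935823), only a later database entry holds the phrase, and 11 members are loci that the table numbers as new. The channels were 57 cyclic nucleotide-gated ion channels (CNGC) and 32 glutamate receptor-like channels (GLR), and the transporters were 30 calcium-transporting ATPases (Ca-ATPase) and 6 cation/calcium exchangers (CCX). The sensors were 8 calmodulins (CaM), 60 calmodulin-like proteins (CML) and 10 calcineurin B-like proteins (CBL). There were also 34 calcium-dependent protein kinases (CDPK), 33 CBL-interacting protein kinases (CIPK) and 36 genes described by their binding to, or modification by, calmodulin, called CaM targets here. The 36 CaM targets were thus grouped by their link to calmodulin and not as channels, pumps or sensors. The protein domains listed in the table fit these names in most members. EF-hand domains, the loops that bind calcium, were listed for all 60 CML, 8 CaM and 10 CBL genes. They were also listed for 30 of the 34 CDPK genes and for a CaM target, the calcium/calmodulin-dependent protein kinase LOC103931474. The cyclic nucleotide-binding domain was listed for 47 of 57 CNGC genes, the ligand-gated channel domain for 31 of 32 GLR genes, and the NAF domain, by which these kinases bind CBL proteins, for 30 of 33 CIPK genes.

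Root tips of wild-type Pyrus betulaefolia, a pear used as a rootstock and raised here from seed, were sampled 24 h after transfer to nutrient solution without boron (0 mM, B deficiency) or with 0.045 mM boron (control). Both groups received the same solution otherwise, calcium nitrate included, and 3 libraries were sequenced for each. The labels call these libraries biological replicates. The paper describes several plants per box and a random harvest of plants from each treatment. The sources used here do not say which plants or boxes each library came from. Differences between boxes therefore cannot be told apart from the treatment, and p-values measure the spread between these libraries.

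Calcium is kept scarce in the cytosol of plant cells. Channels in the plasma membrane and in internal membranes let it in, and pumps and exchangers remove it again, so a stimulus can raise its level for a short time. Calmodulin, CML and CBL proteins bind the ion and pass the signal on to other proteins. CBL proteins act through CIPK kinases, whereas CDPK kinases carry their own calcium-binding part. Calcium and borate are also both found in the pectin of the cell wall, where each joins pectin chains.

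The values are FPKM, a fragment count corrected for gene length and library depth. Groups were compared with limma on log2(FPKM + 0.1) over the 28129 genes whose mean reached 0.5 FPKM. A gene was called higher or lower in B deficiency where its log2 fold change reached 1 in size with an adjusted p under 0.05. On this scale the fold change of a gene with low FPKM comes out smaller than it is. FPKM summed to between 951246 and 971102 per library, and the values hold no read counts, so no counting interval is given. Across the genes tested, B deficiency library 2 had correlations of 0.960 and 0.962 with the other B deficiency libraries, against 0.976 for the other pair. Defining genes of the root tip were present in all libraries, with 29.3, 30.4 and 28.4 FPKM under B deficiency and 32.5, 32.7 and 32.7 in the control libraries for the root meristem factor PLT2 (LOC103963467). The 9 SHORT-ROOT, SCARECROW and PLT2 genes summed to 79.8, 87.9 and 81.8 FPKM under B deficiency and to 96.4, 97.0 and 100.4 in the control libraries, lower in every B deficiency library, and 0 of them were called. The full list of root tip markers was found with more phrases, among them Casparian strip membrane protein and root meristem growth factor. It also holds scarecrow-like genes that do not define the root tip. Of its 61 genes tested, 2 were called higher and 0 lower. Its summed FPKM was 722 to 773 in B deficiency and 693 to 704 in the control, opposite in direction to the 9 genes. Of 28 markers of green tissue tested, 0 were called higher and 7 lower, with sums of 631 to 679 and 660 to 689 FPKM. The part of these shifts in the calcium genes was not tested, and in whole root tips fewer cells of a type cannot be told apart from less RNA per cell.

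Of the 306 calcium genes, 28 were listed at 0 in all 6 libraries, 81 (these 28 included) had a mean under 0.5 FPKM, and 225 were tested. In B deficiency 24 of the 225 were called higher and 5 lower. Over all genes tested, 4.37% were called higher and 3.83% lower, against 10.7% and 2.22% of the calcium genes tested. In either direction, 29 calcium genes (12.9%) were called, where 8.19% of all genes tested were. Without the minimum FPKM, 31 calcium genes (11.2%) were called higher and 8 (2.88%) lower, beside 4.44% and 3.69% of all genes. The members called were spread over 7 of the 10 families, and no CaM, CBL or CCX gene was called. Only 5 CaM, 8 CBL and 4 CCX genes were tested, so these counts of 0 say little beside the 8.19% of all genes. The median log2 fold change was 0.05 over the calcium genes tested and -0.05 over all genes tested. Most log2 fold changes of calcium genes were small, with quartiles of -0.20 and 0.38. Those of all genes tested were -0.27 and 0.17, so the upper quartile of the calcium genes was the higher. Without the minimum fold change, 58 calcium genes (25.8%) had an adjusted p under 0.05 and were higher, and 33 (14.7%) were lower, where 12.0% and 15.4% of all genes tested were. Over the whole table, with no filter on low values, every B deficiency library lay above every control library in 87 of the 306 genes (28.4%) and below in 60 (19.6%). Over all 37815 genes these shares were 15.3% and 20.9%.

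**Figure D1:**
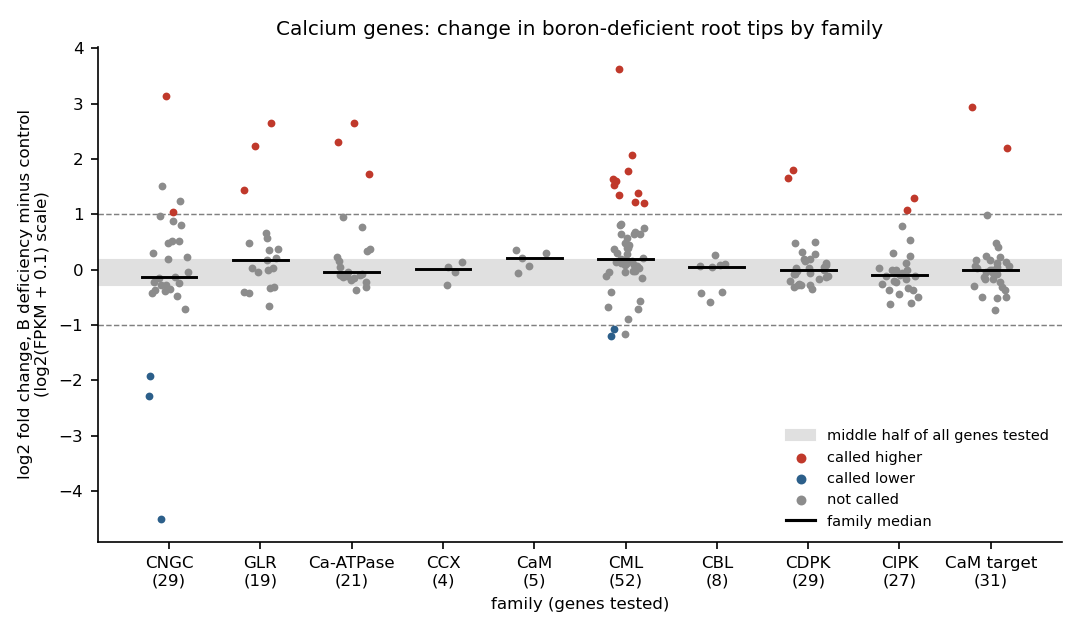
Log2 fold change (B deficiency minus control) of each calcium gene tested, by family, with the number tested in brackets. Points are genes, black bars are family medians, the grey band spans the quartiles of all genes tested and the dashed lines mark log2 fold changes of 1 and -1. Called genes (red higher, blue lower) lie far from the family medians, which range from -0.13 (CNGC) to 0.20 (CML and CaM).

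CNGC proteins are cation channels that open or close with bound cyclic nucleotides and that calmodulin can also bind. Of the 57 genes, 29 were tested, 2 were called higher, 3 were called lower and 24 were not called. All 5 called genes are described as CNGC 1-like, a description shared by 43 of the 57 genes and 21 of those tested. The most abundant of them, LOC103967239, had 188, 183 and 185 FPKM under B deficiency and 128, 130 and 130 in the control libraries. The difference lay well outside the spread between libraries but under the minimum fold (log2 fold change of 0.52, standard error, SE, 0.0418, limma adjusted p = 0.000202). The locus novel2385, which the table numbers itself, had 40.9, 42.5 and 42.1 FPKM under B deficiency and 19.9, 19.0 and 21.7 in the control libraries, and it was called higher (1.05, SE 0.0665, adjusted p = 7.93e-05). The next locus by number, novel2384, is also described as CNGC 1-like and moved the other way. It had 62.3, 30.9 and 62.7 FPKM against 80.5, 81.9 and 81.0 FPKM and was not called (-0.71, SE 0.254, adjusted p = 0.0768). Whether the rise of novel2385 reflects a different division of reads between these loci was not tested. LOC103943448 was almost silent in the control, with 0, 0 and 0.12 FPKM, and had 1.4, 0.96 and 0.84 FPKM in B deficiency. Its mean over all libraries was 0.55 FPKM, so it was tested only because of its values in B deficiency. At such levels the fold change depends on the pseudocount, and it was 3.14 here (adjusted p = 0.00485) and 0.98 with log2(FPKM + 1).

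Other CNGC 1-like genes went the opposite way. LOC125472340 had 2.77, 2.47 and 3.40 FPKM under B deficiency and 13.1, 14.5 and 15.4 in the control libraries, with no overlap (log2 fold change of -2.28, SE 0.137, adjusted p = 6.31e-05). LOC125472357 had 4.51, 1.72 and 0.03 FPKM against 31.5, 18.9 and 21.6 FPKM. The B deficiency libraries of this gene differed widely among themselves, and its log2 fold change of -4.51 (SE 1.16, adjusted p = 0.0261) was -3.02 without B deficiency library 3. Its adjusted p was 0.0873, 0.0707 and 0.0744 without control library 1, 2 or 3. The locus novel3721 was low, with 0.36, 0.41 and 0.29 FPKM under B deficiency and 1.45, 1.58 and 1.85 in the control libraries (-1.93, adjusted p = 0.00218), and it was not called with log2(FPKM + 1), which gave -0.95. Its mean reached the minimum FPKM only through the control libraries. Gene copies matter here, since reads that fit several similar copies are divided among them by estimation. LOC125472340 shares its first database hit with 3 other loci, and the FPKM summed over these 4 loci was 9.68, 3.54 and 5.09 in B deficiency and 14.5, 15.7 and 17.4 in the control. LOC125472357 shares its hit with 1 other locus, and their sum was 5.0, 2.16 and 0.67 FPKM against 32.0, 19.4 and 22.2 FPKM. In both sums the control libraries stayed above the B deficiency libraries. Of the 306 calcium genes, 31 share a first hit with another member.

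GLR proteins resemble animal glutamate receptors and conduct cations, calcium among them. Of the 32 genes, 19 were tested, 3 were called higher, 0 lower and 16 not called. All called genes were described as glutamate receptor 2.8-like, as were 7 of the genes tested. The 4 other tested genes with this description were not called, and 3 of them had negative log2 fold changes, such as novel9 with 7.13, 7.19 and 6.52 FPKM against 8.86, 9.72 and 9.24 FPKM (-0.41, adjusted p = 0.013). LOC103935823 had 11.1, 11.2 and 11.2 FPKM under B deficiency and 2.64, 2.35 and 1.93 in the control libraries. The B deficiency libraries were nearly equal and far above every control library (log2 fold change of 2.24, SE 0.132, adjusted p = 5.84e-05). The first database entry of this locus names a light-sensing protein, TWIN LOV 1, and its GO terms include photoreceptor activity, while its listed domains are those of a glutamate receptor. Whether its value holds reads of more than 1 gene was not tested. The locus novel1785 had 1.82, 2.00 and 2.05 FPKM under B deficiency and 0.25, 0.23 and 0.20 in the control libraries (2.66, SE 0.264, adjusted p = 0.000501, and 1.27 with log2(FPKM + 1)). Its mean reached the minimum FPKM only through the B deficiency libraries. LOC103936954 had 1.46, 2.22 and 1.93 FPKM against 0.51, 0.77 and 0.60 FPKM (1.44, adjusted p = 0.00711), and it was not called with log2(FPKM + 1), which gave 0.81. The most abundant GLR gene was the glutamate receptor 2.7-like LOC103949674, with 12.3, 15.7 and 12.5 FPKM under B deficiency and 12.5, 13.5 and 13.2 in the control libraries. The groups overlapped in this gene (0.04, SE 0.109, adjusted p = 0.836).

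Ca-ATPases pump calcium out of the cytosol at the cost of ATP, those of the plasma membrane type under the control of calmodulin. Of the 30 genes, 21 were tested, 3 were called higher, 0 lower and 18 not called. LOC103955092, described as calcium-transporting ATPase 12, had 6.44, 7.61 and 7.16 FPKM under B deficiency and 0.90, 1.41 and 0.88 in the control libraries (log2 fold change of 2.65, SE 0.202, limma adjusted p = 0.00016). LOC103955093, with the same description, had 2.07, 3.06 and 2.03 FPKM against 0.49, 0.65 and 0.80 FPKM (1.73, SE 0.268, adjusted p = 0.00341, and 1.03 with log2(FPKM + 1)). LOC103967758, calcium-transporting ATPase 2 of the plasma membrane type, had 4.30, 6.07 and 4.79 FPKM against 0.74, 1.03 and 1.05 FPKM (2.31, SE 0.206, adjusted p = 0.000311). All these pumps were thus scarce in the control, near 1 FPKM. Of the 7 genes described as calcium-transporting ATPase 12, 4 were tested, and the 2 not called had log2 fold changes of -0.10 and 0.37. The most abundant pump was LOC103932968 of the endoplasmic reticulum type, with 68.8, 81.8 and 70.3 FPKM under B deficiency and 63.5, 63.1 and 61.7 in the control libraries. It was higher in each B deficiency library, but its log2 fold change was 0.23 (SE 0.0735, adjusted p = 0.0583, and 0.0333 with median-of-ratios scaling). CCX proteins exchange calcium and other cations across membranes, and 4 of the 6 genes were tested. The largest difference among them, in CCX5 (LOC103941504), was a log2 fold change of -0.28 (9.08 ± 0.408 FPKM under B deficiency and 11.1 ± 0.578 FPKM in control roots, mean ± SD of 3 libraries; adjusted p = 0.0414), under the minimum fold.

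The 4 calcium genes with the highest mean FPKM were calmodulins. LOC103937176 had 904, 797 and 924 FPKM under B deficiency and 701, 679 and 669 in the control libraries. The groups did not overlap, and the log2 fold change of 0.35 was small (SE 0.0659, adjusted p = 0.00752). Of the 8 CaM genes, 3 were listed at 0 throughout and 5 were tested. Of the tested genes, 3 had an adjusted p under 0.05 and were higher, and none reached the minimum fold, with log2 fold changes from -0.07 to 0.35. Calmodulin proteins are nearly identical across plants, and 4 of the genes share 1 first hit, so the division of reads between them is uncertain. Summed over these 4 genes, calmodulin stood at 2620, 2409 and 2619 FPKM in B deficiency and at 2176, 2156 and 2141 FPKM in the control.

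CML proteins have EF-hands like calmodulin and differ from it and from each other in the rest of the sequence. This was the family with the most genes tested and also with the most called. Of the 60 genes, 52 were tested, 10 were called higher, 2 lower and 40 not called. Over all genes tested, 4.37% were called higher and 3.83% lower. Without the minimum fold, 25 CML genes had an adjusted p under 0.05 and were higher, against 4 lower, where 12.0% and 15.4% of all genes tested were. The median log2 fold change of the family was 0.20.

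LOC103964070, described as CML19, had the largest rise of all calcium genes tested. It had 16.9, 21.0 and 14.4 FPKM under B deficiency and 1.01, 1.67 and 1.33 in the control libraries (log2 fold change of 3.62, SE 0.208, limma adjusted p = 5.46e-05). A second CML19 gene, LOC103950024, had 20.2, 17.4 and 18.9 FPKM against 3.61, 4.67 and 5.11 FPKM (2.07, SE 0.138, adjusted p = 9.78e-05). Both genes reached a similar level in B deficiency from different levels in the control. LOC103964989, described as CML45, had the lowest adjusted p of the called calcium genes, with 131, 140 and 134 FPKM under B deficiency and 40.2, 38.1 and 39.5 in the control libraries (1.78, SE 0.0504, adjusted p = 6.34e-06). Another CML45 gene, LOC103951055, had 4.36, 4.54 and 5.84 FPKM against 1.21, 1.60 and 1.76 FPKM (1.63, SE 0.193, adjusted p = 0.00106). These CML45 genes had similar fold changes at levels that lay far apart. Of the other 2 genes with this description, LOC103950948 had 0.37, 0.56 and 0.66 FPKM against 1.01, 1.16 and 0.99 FPKM, without overlap and not called (-0.90, adjusted p = 0.0626), and 1 was not tested.

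The other CML genes called higher included 2 described as CML36, the more abundant of which, LOC125474047, had 200, 241 and 201 FPKM under B deficiency and 83.6, 84.2 and 82.1 in the control libraries (1.36). A CML36 gene that was not called, LOC125467814, was also higher in each B deficiency library (0.75, adjusted p = 0.000218). LOC125474047 was the only called gene among the 17 calcium genes that averaged 100 FPKM or more. The rest were a CML23 gene (LOC103927250, 1.53), another CML19 gene (LOC125474093, 1.60, with 4.71, 6.99 and 3.44 FPKM against 0.82, 1.42 and 3.01 FPKM), calmodulin-like protein 8 (LOC125472066, 1.38) and a CML15 gene (LOC103938314, 1.21). The call of LOC125474093 was lost without B deficiency library 1 or 2 or control library 1 or 2 (adjusted p from 0.0703 to 0.107), and its adjusted p was 0.0574 with the replicate number as a block. LOC103953212, described as CML50, fell from 22.8, 21.3 and 20.3 FPKM in the control to 11.4, 7.76 and 8.97 FPKM in B deficiency (-1.21, SE 0.138, adjusted p = 0.000911). LOC103938736, 1 of 3 genes described as CML25, had 1.07, 1.3 and 2.34 FPKM against 3.22, 2.67 and 3.94 FPKM (-1.07, adjusted p = 0.035). Its call was lost in 7 of the 12 alternatives with the minimum fold, among them the fits without B deficiency library 1 or 2 (adjusted p = 0.0904 and 0.0587) and without control library 1, 2 or 3 (0.0978, 0.0616 and 0.120). The other CML25 genes, LOC103943073 and LOC125477645, were not called and had log2 fold changes of 0.64 (adjusted p = 0.0316) and 0.40 (adjusted p = 0.174). The most abundant CML gene, CML49 (LOC125473360), had 319, 299 and 325 FPKM under B deficiency and 283, 300 and 303 in the control libraries, with overlapping groups (0.09, adjusted p = 0.253).

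**Figure D2:**
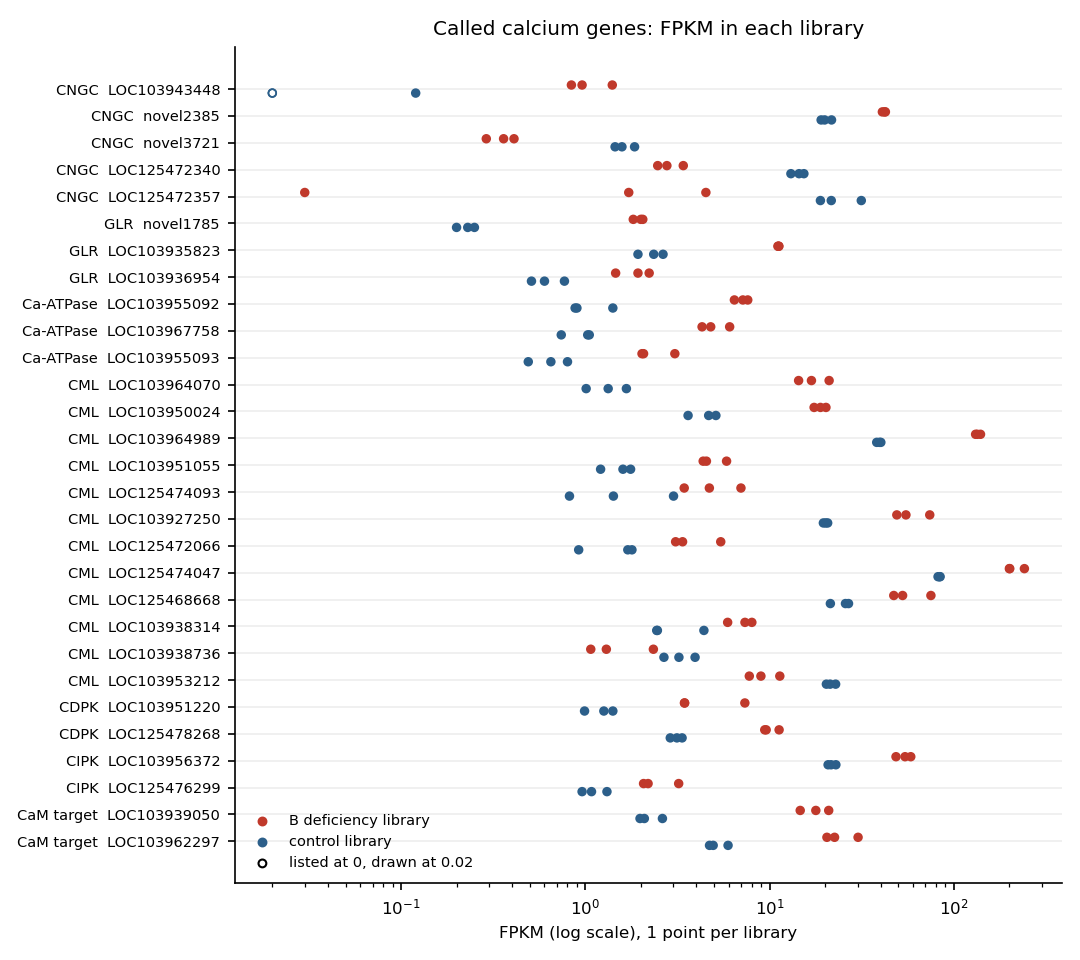
FPKM (log scale) of the 29 called calcium genes, 1 point per library, with B deficiency in red, control in blue and an open circle for libraries listed at 0, ordered by family and fold change. In no gene do the groups overlap, and LOC125472357 has the widest spread, from 0.03 to 4.51 FPKM in B deficiency.

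CBL proteins are calcium sensors that bring CIPK kinases to membranes, where the kinases act on transport proteins. Of 10 CBL genes, 8 were tested and 0 were called, with log2 fold changes between -0.58 and 0.27. CBL4 (LOC103958142), the most abundant, had 37.2, 41.7 and 38.3 FPKM under B deficiency and 31.0, 31.1 and 35.3 in the control libraries (0.27, SE 0.0763, adjusted p = 0.0387). CBL7 (LOC103949245) moved furthest, with 17.9, 18.9 and 15.1 FPKM against 26.1, 27.6 and 23.9 FPKM (-0.58, SE 0.102, adjusted p = 0.00577). Neither pair of groups overlapped, and both differences were under the minimum fold.

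Among the 33 CIPK genes, 27 were tested, 2 were called higher, 0 lower and 25 not called. Without the minimum fold, 4 had an adjusted p under 0.05 and were higher, and 7 were lower. CIPK9 (LOC103956372), which in Arabidopsis takes part in the response to low potassium, had 58.4, 48.5 and 54.3 FPKM under B deficiency and 22.9, 20.8 and 21.6 in the control libraries (1.3, SE 0.0815, adjusted p = 7.54e-05). It was the more abundant of the called CIPK genes. LOC125476299, a CIPK23-like gene, had 2.07, 2.19 and 3.21 FPKM against 1.31, 0.96 and 1.08 FPKM (1.07, SE 0.233, adjusted p = 0.0139). In Arabidopsis CIPK23 activates uptake channels for potassium. LOC125476299 was not called with log2(FPKM + 1) (0.71), without B deficiency library 3 (0.88) or without control library 2 (0.98, adjusted p = 0.052). The gene described as CIPK23 itself, LOC103951310, was far more abundant and lower in B deficiency, with 54.2, 52.8 and 51.5 FPKM against 72.4, 71.0 and 72.3 FPKM, under the minimum fold (-0.44, SE 0.0478, adjusted p = 0.000702). The most abundant CIPK gene, CIPK6 (LOC103949085), was slightly lower, with 130, 142 and 127 FPKM under B deficiency and 152, 152 and 155 in the control libraries (-0.20, adjusted p = 0.0335).

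CDPK kinases join a kinase to EF-hands in 1 protein and so act without a separate sensor. Of the 34 genes, 29 were tested, 2 were called higher, 0 lower and 27 not called. CDPK1 (LOC125478268) had 9.58, 9.41 and 11.3 FPKM under B deficiency and 2.89, 3.14 and 3.35 in the control libraries (1.66, SE 0.116, adjusted p = 0.000118). LOC103951220, a CDPK2-like gene, had 3.46, 7.34 and 3.45 FPKM against 1.26, 1.41 and 0.99 FPKM (1.80, SE 0.313, adjusted p = 0.00564). B deficiency library 2 stood well above the others in this gene, which was called in all 12 alternatives with the minimum fold. Genes with similar descriptions were not called. The CDPK1-like LOC103947026 was more abundant, with 52.7 ± 3.56 FPKM under B deficiency and 53.6 ± 1.23 FPKM in control roots (-0.03, adjusted p = 0.787). The CDPK2-like genes LOC103931016, LOC103948173 and LOC103951366 had log2 fold changes of 0.03, 0.19 and 0.15. The most abundant CDPK gene, the CDPK32-like LOC103963078, was among the 27 not called, with 126 ± 15.3 FPKM under B deficiency and 127 ± 3.82 FPKM in control roots (mean ± SD of 3 libraries; -0.01, adjusted p = 0.932, and 0.04 with median-of-ratios scaling).

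The 36 CaM targets are a mixed group of calmodulin-binding transcription factors, receptor-like kinases, kinesins and others. Of these, 31 were tested, 2 were called higher, 0 lower and 29 not called, and both called genes encode calmodulin-binding proteins of the CBP60 type, a plant family of DNA-binding regulators with members that act in immunity in Arabidopsis. LOC103939050, described as CBP60 F-like, had 17.8, 20.9 and 14.7 FPKM under B deficiency and 2.09, 1.98 and 2.62 in the control libraries (log2 fold change of 2.94, SE 0.164, adjusted p = 4.91e-05). LOC103962297, CBP60 D-like, had 22.5, 30.2 and 20.5 FPKM against 4.94, 5.95 and 4.72 FPKM (2.19, SE 0.16, adjusted p = 0.000135). Other CBP60 genes had a higher mean FPKM and were not called. These were LOC103949109 (0.25, adjusted p = 0.0217), LOC103955955 (0.13), LOC103964603 (-0.05) and LOC125478936 (0.13). The calmodulin-binding protein 25-like gene LOC103962332, named here after its values were seen, lay just under the minimum fold, with 108 ± 12.1 FPKM under B deficiency and 54.3 ± 3.21 FPKM in control roots (mean ± SD of 3 libraries; 0.99, adjusted p = 0.000308). It was called with median-of-ratios scaling between libraries (1.04) and in 3 of the fits with a library left out (1.02 to 1.04). The most abundant CaM target, a calmodulin-binding transcription activator (LOC103943652), had 124, 182 and 128 FPKM against 105, 103 and 99.9 FPKM (0.47, SE 0.138, adjusted p = 0.0414).

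**Figure D3:**
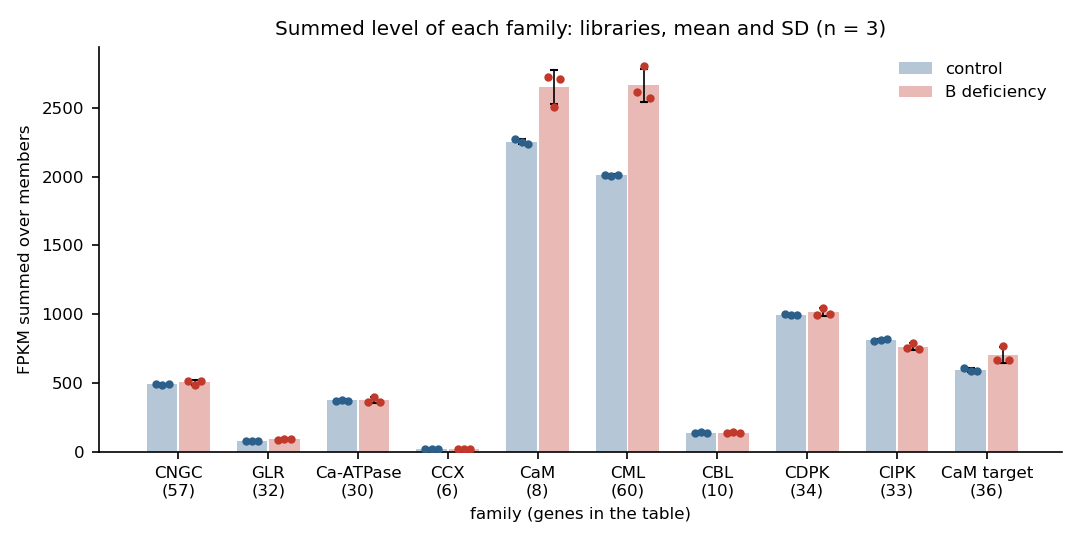
FPKM summed over all members of each family, with the number of genes in brackets. Bars are means over 3 libraries with SD, points are libraries, blue is control and red is B deficiency. The CML sum was 2010 FPKM in the control and 2666 FPKM in B deficiency, where the Ca-ATPase sums were 373 and 374 FPKM.

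Summed over its members, the CML family had 2666 ± 121 FPKM under B deficiency and 2010 ± 6.41 FPKM in control roots (mean ± SD of 3 libraries). The CaM family had 2650 ± 122 and 2255 ± 18.4 FPKM, and the CaM targets 701 ± 57.9 and 593 ± 13.5 FPKM. In contrast, the Ca-ATPase sum was 374 ± 21.3 FPKM under B deficiency and 373 ± 4.93 FPKM in control roots, although 3 of its genes, all scarce in the control, were called higher. CNGC genes summed to 505 ± 18 and 490 ± 4.48 FPKM, and CDPK genes to 1013 ± 28.2 and 994 ± 4.44 FPKM. GLR genes summed to 88.9 ± 0.345 and 76.2 ± 1.53 FPKM. The sums of CIPK (763 ± 26.4 against 813 ± 6.80 FPKM), CBL (136 ± 3.79 against 138 ± 2.35 FPKM) and CCX genes (19.6 ± 0.656 against 21.7 ± 0.389 FPKM) had lower means in B deficiency. These sums are descriptions, and no test was made on them. The SD was larger in B deficiency than in the control in every family but GLR.

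**Figure D4:**
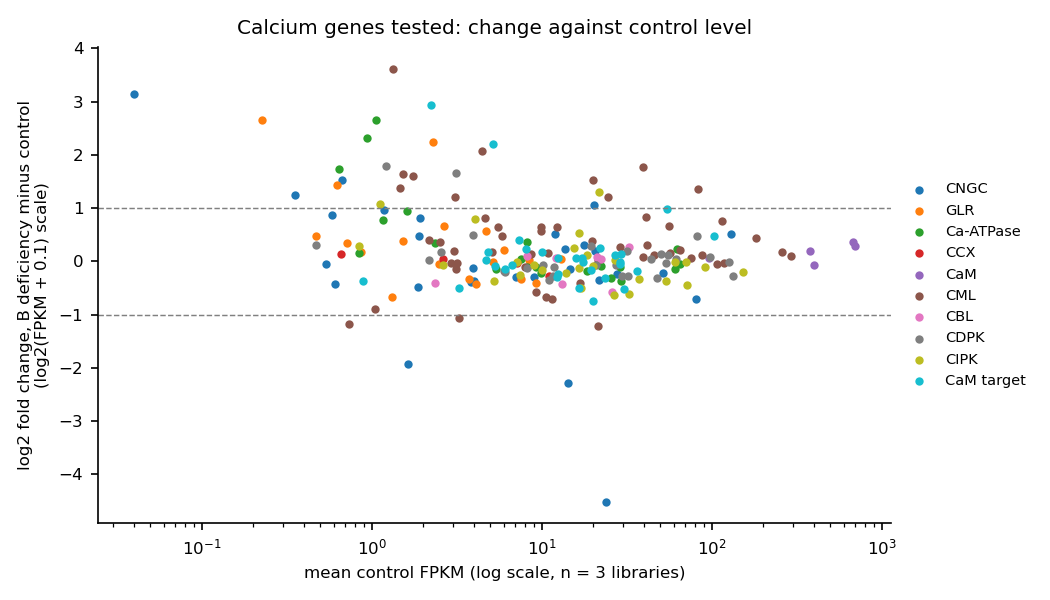
Log2 fold change of the 225 calcium genes tested against their mean FPKM in the control (log scale), coloured by family. Dashed lines mark log2 fold changes of 1 and -1. Most large rises lie at the left, and 17 of the 24 genes called higher had under 5 FPKM in the control.

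Of the 24 calcium genes called higher, 17 (70.8%) had a mean under 5 FPKM in the control, the same share as among all genes called higher (70.8%). Among the genes tested these shares were 30.2% for calcium genes and 34.8% for all genes. Of the 17 calcium genes whose mean reached 100 FPKM, 1 was called (5.88%), and over all 1630 genes tested at that level 3.07% were called. In 16 of the 24 genes called higher, B deficiency library 2 was the highest library. The share among all genes called higher was not worked out, so this count cannot be read as a trait of the calcium genes. Without B deficiency library 2, 23 calcium genes were called higher and 6 lower, and 26 of the 29 calls were kept.

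The deposited annotation places 149 of the 306 calcium genes in the KEGG pathway of plant-pathogen interaction, in which calcium entry and its sensors stand early in the immune response. Of the 260 genes of this pathway that were tested, 41 (15.8%) were called, beside 8.19% of all genes tested. Calcium genes made up 105 of the 260, and 18 of them (17.1%) were called, close to the share of the whole pathway. Of these 18, 14 were called higher, and the share called higher over the pathway was not worked out.

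Other genes of the calcium pathway were looked up by a separate list of 128 genes, of which 98 were tested, 7 were called higher and 1 lower (7.14% and 1.02%, beside 4.37% and 3.83% of all genes tested). Annexins, which bind membranes when calcium is present, held 4 of the 7, out of 12 tested. The annexin RJ4 gene LOC103952162 had 97.8, 62.6 and 89.3 FPKM under B deficiency and 16.4, 15.6 and 18.3 in the control libraries (2.28, SE 0.161, adjusted p = 0.000123). LOC103952163, also an annexin RJ4 gene, had 8.93, 6.76 and 9.34 FPKM against 1.43, 1.91 and 0.59 FPKM (2.7, SE 0.377, adjusted p = 0.00219). In both genes the groups lay far apart. Another annexin RJ4 gene, LOC103945581, was not called and was lower in each B deficiency library (1.53, 1.97 and 1.77 against 2.18, 2.37 and 2.10 FPKM; -0.32, adjusted p = 0.200). Without the minimum fold, 5 annexin genes had an adjusted p under 0.05 and were higher. By the same measure 1 was lower, the annexin D1-like LOC103929879 (170 ± 3.01 against 220 ± 6.08 FPKM, mean ± SD of 3 libraries, -0.37, adjusted p = 0.00115).

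A calcium uniporter 6-like gene of the mitochondrion (LOC103963335), which belongs to the channel that carries calcium into that organelle, rose from 5.36 ± 0.623 to 11.8 ± 1.4 FPKM (mean ± SD of 3 libraries; 1.13, adjusted p = 0.000931). The IQM1-like gene LOC103951881, a calmodulin-binding protein, rose from 2.68 ± 0.247 to 9.82 ± 2.21 FPKM (1.82, adjusted p = 0.000368). Calreticulin-3-like (LOC103932480), a chaperone of the endoplasmic reticulum, rose from 4.17 ± 0.275 to 9.02 ± 0.922 FPKM (1.09, adjusted p = 0.000619), and it was not called with log2(FPKM + 1) (0.95). The one gene called lower was the vacuolar cation/proton exchanger 3-like gene LOC103966338, which loads calcium into the vacuole, with 0.97, 0.63 and 1.20 FPKM under B deficiency and 2.29, 2.37 and 2.12 in the control libraries (-1.23, SE 0.254, adjusted p = 0.0113). Its size stayed under the minimum fold with log2(FPKM + 1) (-0.76) and when B deficiency library 2 was left out (-0.999). None of the 13 OSCA genes (osmotic stress-gated calcium channels), 6 NADPH oxidase genes with EF-hands (RBOH), 2 genes of the two-pore channel (TPC) list or 2 MCA genes tested was called, and their log2 fold changes lay between -0.69 and 0.73. Without the minimum fold, 5 OSCA genes had an adjusted p under 0.05 and were lower, and 2 were higher. For RBOH these counts were 1 and 1, and for TPC and MCA they were 0. Over all genes tested, 15.4% were lower and 12.0% higher in this way. On the TPC list 1 gene is described as a two-pore channel (LOC103928829), whereas LOC103948547 is first described as callose synthase 12-like. Counts of 0 among so few genes say little beside the 8.19% called over all genes.

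**Figure D5:**
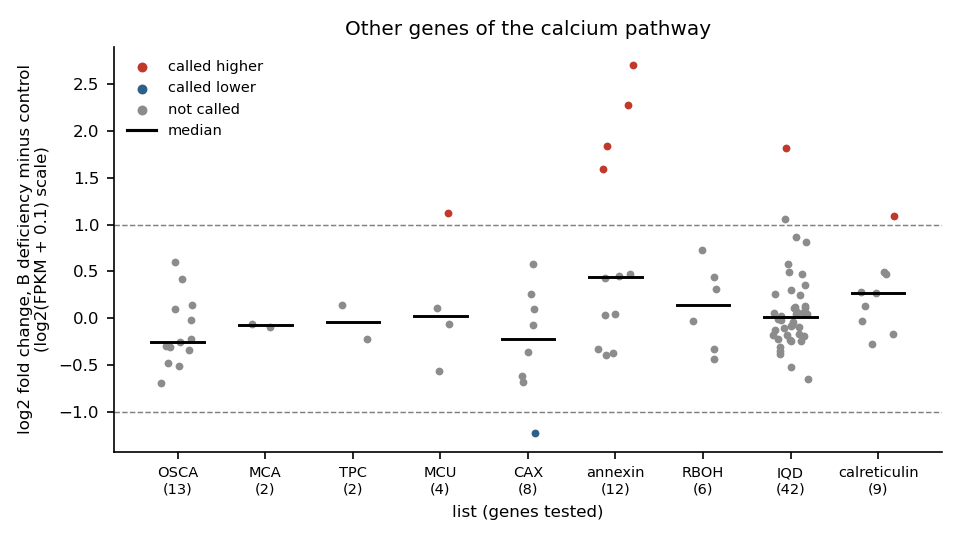
Log2 fold change (B deficiency minus control) of the 98 other calcium pathway genes tested, by list, with the number tested in brackets. Red points were called higher, blue points lower, black bars are list medians and dashed lines mark log2 fold changes of 1 and -1. The annexins hold 4 of the 7 genes called higher.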

How the data were processed

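Root tips were compared after 24 h in B deficiency and control, with 3 libraries per group assigned from the sample titles. The control columns carry numbers where the labels use letters, and they were matched by the replicate number in the titles. The authors give STAR as the aligner, the genome of P. bretschneideri as the target and RSEM as the quantifier, and the deposited FPKM hold 2 decimals. The submitters' processing notes name HISAT2, Cufflinks 2.2.1 and mouse genome builds instead, so the software behind the values is not certain. No annotation release is named in those sources. The 6 library columns were identical in both deposited tables. The 4 columns of the authors' group means, ratios and log2 changes were not used, and 0 columns of single libraries were left out. The library kit does not mark strand as described, so overlapping genes cannot be separated.

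Expression was compared with limma (version 3.58.1, R 4.3.3; eBayes with a trend) on log2(FPKM + 0.1), with no covariate and p-values adjusted by Benjamini-Hochberg across the 28129 genes whose mean reached 0.5 FPKM. The thresholds are those of the paper, whose test needs counts. The step was tested on simulated data with the same spread in all libraries and no change in genes of very low FPKM. That test therefore does not bear on the lowest genes called. The smallest p of an exact permutation test at this size is 0.1, and the model across all genes was used for this reason. Members and lists were chosen with earlier results of these data known, and the lists were matched on description text. Families were assigned by the first matching phrase. The genes named are, for each family, all called members (for CML the 4 largest rises and 2 largest falls), the most abundant member and, where none was called, the member that moved furthest, and for the other lists the 2 largest called changes. Genes beyond this rule were named after their values were seen. Alternatives were another pseudocount, other minimum FPKM, median-of-ratios scaling, no trend, a block for the replicate number, no minimum fold and each library left out. Python 3.11.15, numpy 2.4.6, pandas 2.3.3 and matplotlib 3.10.9 were used for the other steps.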

Additional observations from a re-analysis of the deposited data

How the results depend on the processing

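Of the 29 calls among calcium genes, 21 (19 higher, 2 lower) were kept in all 12 alternatives with the minimum fold and 24 (21 higher, 3 lower) in the 6 fits that each dropped 1 library, where a gene that fell under the minimum FPKM counts as lost. No called gene named here changed direction. Of the genes not called, the CDPK32-like LOC103963078 (-0.01) was between 0.01 and 0.04 with median-of-ratios scaling and in 3 of the fits with a library dropped, and the glutamate receptor 2.7-like LOC103949674 (0.04) was -0.08 without B deficiency library 2. The number of calcium genes called lower, 5, was 3 with log2(FPKM + 1) and with no trend, 8 with no minimum FPKM, and between 3 and 6 with a library left out, the lowest value being reached without control library 1, 2 or 3. With no minimum fold change, 7693 of all genes and 91 calcium genes were called, of which 58 were higher and 33 lower. The sources used here do not say whether the replicate numbers pair the samples. The correlation of deviations from the group means was 0.04, 0.035 and -0.005 for the same-numbered libraries. Not every library correlated best with its own number, and with 3 libraries per group these values cannot settle the question. With the replicate number as a block, 28 calcium genes were called, all of them among the 29. With median-of-ratios scaling 31 calcium genes were called. Depth limits the low genes most, since FPKM near 0.5 rests on few fragments.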

Other observations

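Some calcium genes below the minimum of 0.5 FPKM differed between the groups as well. Without this minimum, 53 of the 81 genes left out could be fitted, the others being at 0 throughout, and 9 were called, 6 higher and 3 lower. Of all 5691 genes added in this way, 4.88% were called higher and 3.43% lower. The CNGC 1-like gene LOC103936557 was listed at 0 in every control library and had 0.72, 0.76 and 0.55 FPKM in B deficiency. LOC103935446, a further calcium-transporting ATPase 12 gene, had 0.23, 0.21 and 0.25 FPKM under B deficiency and 0, 0 and 0.04 in the control libraries. The CBP60 F-like genes LOC103939860 and LOC103939840 had 0.56, 0.70 and 0.46 FPKM and 0.60, 0.53 and 0.21 FPKM in B deficiency, against 0.20, 0.05 and 0.05 FPKM and 0, 0.05 and 0.12 FPKM in the control. They share their first database hit with each other and with 1 more locus, and the FPKM summed over the 3 loci was 1.16, 1.23 and 0.67 against 0.20, 0.10 and 0.17. Among the genes that were lower, LOC103953213, described as CML49, had 0.08, 0.08 and 0 FPKM under B deficiency and 0.88, 0.22 and 0.66 in the control libraries. The CNGC 1-like gene LOC125472388, one of the loci summed with LOC125472340 above, had 0.07, 0 and 0.12 FPKM against 0.87, 0.27 and 1.23 FPKM. These values rest on few fragments and are given as they are listed.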
